A study of Mus musculus with 2 samples.

Results

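Barcodes with Cd34, Muc13 and Adgrg1 mRNA but few transcripts of stem cell, lymphoid or granule genes were taken from 2 single-cell RNA libraries of mouse bone marrow. A barcode was kept if it held at least 1000 genes and under 10% of unique molecular identifiers (UMIs, 1 per captured mRNA molecule) from mitochondrial genes. Members were selected on these same UMI counts. A barcode was a member if it held at least 3 UMIs of Cd34 and at least 1 UMI each of Muc13 and Adgrg1. It also had to hold at most 3 UMIs of Hlf plus Mecom, at most 1 of Dntt and at most 2 of F13a1. Elane had to stay under 0.2% and Prss34 plus Mcpt8 under 0.05% of its UMIs. Of 14083 kept barcodes 1727 were members. The control library gave 1008 of 8003 kept barcodes (12.6%, exact Clopper-Pearson 95% interval 11.9 to 13.3) and the knockout library 719 of 6080 (11.8%, 11.0 to 12.7). These intervals overlap.

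Both libraries came from Lineage- cKit+ marrow cells of femora and tibiae of C57BL/6 mice, frozen and thawed before loading. The control mice were Trsp f/f, that is, with loxP-flanked copies of Trsp and with no Cre in their label. The knockout mice were Trsp f/f:Mx1-Cre, in which an interferon-inducible promoter drives Cre in blood cells and in other tissues. Mice of both genotypes received 3 doses of 500 µg pI-pC, a synthetic RNA that mimics viral infection and turns on the Mx1 promoter, and were killed 9 weeks after the last one. The series record ties the injections to 7 weeks after birth in a wording that leaves the age open, and how many mice each library pooled is not given in those records. With 1 library per genotype no difference below has a replicate check, no test was made, and each 95% interval covers counting error only.

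Trsp encodes the transfer RNA that reads the codon UGA as selenocysteine (Sec), the amino acid in the active site of glutathione peroxidases and thioredoxin reductases. Without it a ribosome can read a Sec codon as a stop, and an mRNA with a stop upstream of an exon junction is a substrate of nonsense-mediated decay. Multipotent progenitors are the proliferating descendants of hematopoietic stem cells that feed the lymphoid and myeloid lineages, and selenoenzymes are part of their defence against peroxides. NRF2 is the transcription factor that raises genes of glutathione synthesis, NADPH supply and iron storage when cells are exposed to oxidants or electrophiles.

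The Sec codons of several selenoprotein genes are shown because the mRNA differences below divided along their place in the transcript. Each line gives coding sequence from GENCODE M21 (GRCm38), 5′ to 3′, with the Sec codon in capitals. The first 4 have the codon upstream of the last exon junction, and the last 3 have it in the last exon, which in Sephs2 is the only one.
Selenoh, codon 38 at chr2:84670381-84670383, minus strand: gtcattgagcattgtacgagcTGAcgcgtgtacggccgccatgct
Selenow, codon 13 at chr7:15920464-15920466, minus strand: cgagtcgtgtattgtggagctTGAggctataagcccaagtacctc
Gpx1, codon 47 at chr9:108339451-108339453, plus strand: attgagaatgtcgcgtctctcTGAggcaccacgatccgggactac
Gpx4, codon 73 at chr10:80054737-80054739, plus strand: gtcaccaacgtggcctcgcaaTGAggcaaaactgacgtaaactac
Selenoi, codon 388 at chr5:30266964-30266966, plus strand: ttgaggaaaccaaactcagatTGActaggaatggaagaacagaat
Sephs2, codon 63 at chr7:127273731-127273733, minus strand: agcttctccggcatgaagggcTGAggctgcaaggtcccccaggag
Txnrd1, codon 498 at chr10:82896037-82896039, plus strand: gacatcctccagtctggctgcTGAggt

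Members had a median of 19165.5 UMIs in control and 21739 in knockout, and a median mitochondrial share of 3.65% and 4.46%. The 2 files shared 39 barcode sequences, and 0 barcodes were members in both. At the Cd34 threshold, 98 control and 61 knockout members held exactly 3 UMIs, while 108 and 57 barcodes failed the rule only by holding 2. At the Hlf plus Mecom threshold, 120 and 111 members held 3 UMIs, and 83 and 67 barcodes failed only by holding 4. The barcodes that failed only the Hlf plus Mecom criterion (420 control, 418 knockout) are called stem neighbours. Those that failed only the F13a1 or Elane criteria or both (818 and 690) are called myeloid neighbours, and those that failed only the Dntt criterion (131 and 107) Dntt neighbours.

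The markers given for these cells were present, but the name "without lineage markers" held only in part. The choice of members fixed the levels of Cd34, a sialomucin of early progenitors, of Muc13, a transmembrane mucin, and of Adgrg1, an adhesion receptor, and these levels are given as a description. As CPM (UMIs of a gene in 1000000 UMIs, summed over members), Cd34 stood at 413 in control and 399 in knockout, Muc13 at 164 and 168, and Adgrg1 at 502 and 529. Kit, the receptor used in the sort, stood at 149 and 166 CPM. Mpo, a granule enzyme of neutrophil and monocyte precursors, stood at 3129 and 2778 CPM in members. In barcodes with at least 10 UMIs of Cd79a plus Cd79b, B-lineage cells that should lack it, Mpo stood at 143 and 585 CPM. These barcodes were not alike in the libraries, since those of the knockout also had Flt3 at 95.3 CPM and Adgrg1 at 132 CPM, against 18.8 and 31.3 CPM in control, so the knockout value may hold mRNA of the cells themselves. After thinning every barcode to 11896 UMIs, 98.8% of control and 99.1% of knockout members held a Mpo UMI (99.0% and 99.2% unthinned), against 71.0% and 86.2% of 31 and 29 B-lineage barcodes (90.3% and 94.1% of 31 and 34 unthinned). The median member held 31 and 25 Mpo UMIs and the median B-lineage barcode 1 and 2, so the level in members lay above that in B-lineage barcodes. Elane, capped by the rule, stood at 409 and 350 CPM in members against 38.8 and 299 CPM in B-lineage barcodes.

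Of 20 genes of lymphoid priming 9 were measured, among them Flt3, Notch1 and Ighm. The list's summed level was 920 CPM in control and 1362 CPM in knockout members. Ighm alone stood at 233 and 571 CPM, and 10 barcodes held 83.6% of its knockout UMIs. Per thinned member the list had a median of 8 UMIs in control and 9 in knockout. Il7r, the interleukin-7 receptor chain of lymphoid progenitors, was found in 0 of 884 thinned control members and in 0.746% of thinned knockout members, against 3.23% and 51.7% of B-lineage barcodes. The exact upper bound of that 0 is 0.416% of members with a UMI, which does not limit the share that expresses the gene. Cd3e, Cd3g and Ncr1 had 0 UMIs in both libraries, and Cd3d had 3 and 6. Of the T and NK list only Nkg7 was above the floor, with 3614 and 2050 UMIs, so the list's summed level (178 and 126 CPM) was mostly that gene. Among stromal and endothelial genes Col1a1 had 0 UMIs in both libraries and Cdh5 0 and 1, while Pecam1, which blood progenitors also express, gave 1389 and 1437. Of 24 stem cell genes 9 were measured, with a summed level of 944 and 840 CPM, among them Ifitm1, Angpt1, Gata2 and Meis1, while Procr stood at 3.82 and 1.53 CPM and Slamf1 at 1.62 and 0.858 CPM.

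Clustering the members of both libraries together, without the rule genes and the selenoproteins, gave 7 sub-clusters. The groups were formed from 1500 variable genes of these same cells, so their leading genes are a description. Some sex-linked genes and the mitochondrial and ribosomal protein genes were also left out. Sub-cluster 1 (403 members) was led by S phase genes such as Ung, Ccne2 and Cdc6. Sub-cluster 2 (357) had the highest Cd34, 524 CPM, the lowest Mpo, 1183 CPM, and little of the proliferation gene Mki67, 30.6 CPM, with Egr3, Socs3 and Nr4a1 among its leading genes. Sub-cluster 3 (354) was led by Ngp, Camp, S100a9 and S100a8, mostly from 1 control barcode, by the class II genes H2-Aa and Cd74, and then by histone genes. Kif18b, Ube2c and Nusap1, genes of mitosis, followed, and Mki67 stood at 521 CPM. Sub-cluster 4 (282) was led by the immunoglobulin genes Jchain, Igkc and Ighm. It had the highest level of Irf8, a transcription factor of monocyte and dendritic cell fates, at 308 CPM. Flt3, the receptor that marks lymphoid-primed progenitors, was also highest there, at 101 CPM, near the 94.6 CPM of sub-cluster 2.

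The remaining sub-clusters carried genes of the mast cell, basophil or eosinophil lineages, and sub-clusters 5 and 6 also carried erythroid and megakaryocyte genes. Neutrophil and monocyte genes were not confined to them, since Mpo stood at 3834, 3504 and 3390 CPM in sub-clusters 1, 3 and 4. It stood at 1610, 1495 and 6269 CPM in sub-clusters 5, 6 and 7. Sub-clusters 5 (156 members) and 6 (151) had the mast cell and basophil genes Ms4a2, at 264 and 247 CPM, and Cpa3, at 646 and 660 CPM, with Gata1, the erythroid and megakaryocyte regulator, at 56.8 and 48.9 CPM. Flt3 was at 5.66 and 7.68 CPM there. The erythroid and megakaryocyte list summed to 956 CPM in sub-cluster 5 against 313 CPM in all members outside it. In sub-cluster 6 it summed to 1113 against 325 CPM. The basophil, mast cell and eosinophil list summed to 1583 against 925 CPM and to 1703 against 941 CPM. Car1, an erythroid carbonic anhydrase, reached 94.2 CPM in sub-cluster 6 and at most 3.29 CPM in the others, but 229 of its UMIs there were from control and 4 from knockout members. Sub-cluster 7 (24 members) was led by eosinophil granule genes, with Prg2 at 18178 CPM against 14.6 CPM in all other members. These 3 groups held 331 of the 1727 members. Shares of each sub-cluster are not compared between genotypes, since Jchain, Igkc and other leading genes also differed between the libraries.

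**Figure D1:**
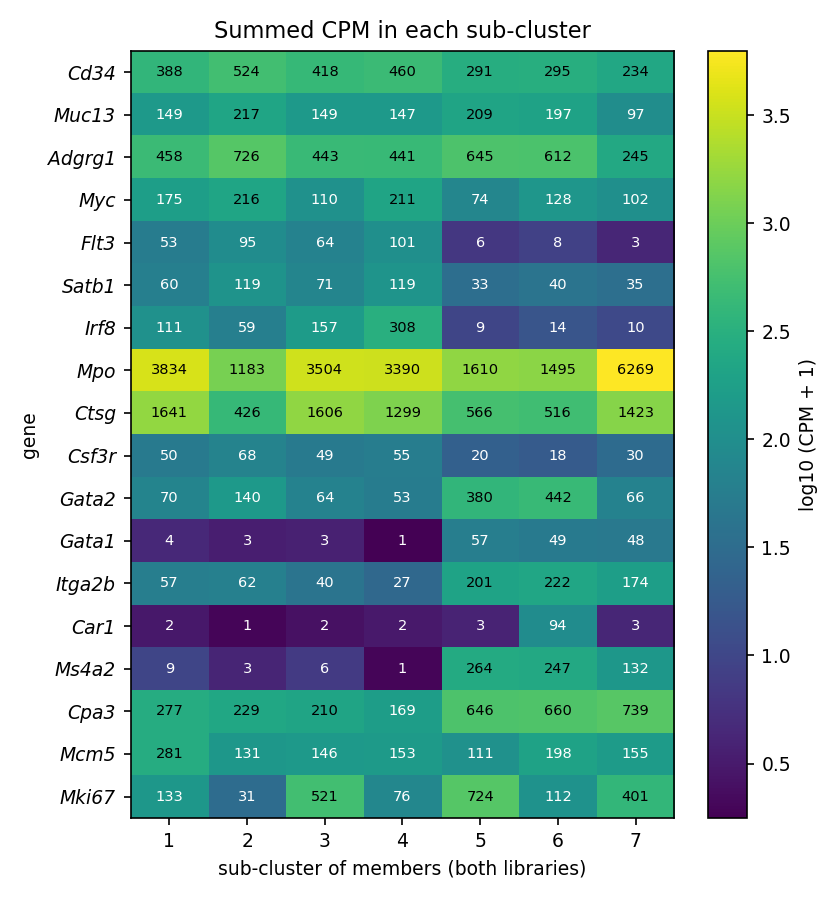
Summed CPM (number in each cell, colour on a log10 scale) of 18 genes in the 7 sub-clusters of members, both libraries together. Ms4a2 and Gata1 stand out in sub-clusters 5, 6 and 7, Irf8 in sub-cluster 4 and Mki67 in sub-clusters 3, 5 and 7.

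Against the stem neighbours, members of both libraries had more mRNA of granulocyte and mast cell genes, a contrast that the rule drew from the same counts. Of 6237 genes measured in both libraries, 38 (0.609%) were at least 2-fold higher in members in both, and 67 (1.07%) at least 2-fold lower. Ms4a2 stood at 61.1 CPM in control members and 9.0 CPM in control stem neighbours, and at 36.2 and 3.95 CPM in the knockout. Ctsg, the protease cathepsin G, stood at 1434 against 461 CPM and at 971 against 285 CPM, and Irf8 at 107 against 33.7 CPM and 150 against 27.9 CPM. Vldlr, a lipoprotein receptor, was lower in members, at 8.19 against 40.0 CPM in control and 3.74 against 27.8 CPM in knockout. Ltb, which encodes lymphotoxin beta, stood at 5.29 against 38.7 CPM and at 5.45 against 44.0 CPM. Against the myeloid neighbours Ctsg and Irf8 were lower in control members, at 1434 against 2907 CPM and at 107 against 293 CPM, a pair added after the values were seen. Gata2, a regulator of stem and mast cells, stood at 136 against 28.1 CPM in that contrast, and the monocyte antigen gene Ly6c2 at 41.6 against 541 CPM. In that contrast 1.61% of 6010 genes were at least 2-fold higher in members in both libraries and 0.932% lower. Angpt1, which encodes angiopoietin-1, stood at 155 against 32.4 CPM in control and 152 against 28.0 CPM in knockout, and Ctla2a, a cysteine protease inhibitor, at 314 against 44.7 and 241 against 29.3 CPM.

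Between members and Dntt neighbours, of 6099 genes 1.1% were at least 2-fold higher and 1.23% lower in members in both libraries. Arpp21, a gene of lymphoid precursors, stood at 0.588 CPM in control members and 24.3 CPM in control Dntt neighbours, and at 0.674 and 32.7 CPM in the knockout. Il18rap, an interleukin-18 receptor chain, stood at 7.26 against 44.3 CPM and at 8.40 against 53.2 CPM. Higher in members were Cpa3, at 346 against 33.3 CPM and 258 against 11.5 CPM, and Itga2b, the integrin of megakaryocytes, at 80.1 against 12.5 CPM and 71.6 against 6.14 CPM. The immunoglobulin genes Jchain, at 30.5 against 3.13 CPM and 112 against 2.86 CPM, and Igkc were also higher in members, where few barcodes held most of their UMIs.

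Set against all other kept barcodes, members had at least 2-fold more mRNA of 0.582% of 6009 genes in both libraries and at least 2-fold less of 1.41%. Mc5r, a melanocortin receptor, stood at 58.2 CPM in control members and 17.3 CPM in the others, and at 77.3 and 25.1 CPM in the knockout. Mdga1, a membrane-anchored adhesion protein, stood at 54.5 against 15.2 CPM and at 55.7 against 16.1 CPM, and Spns2, a sphingosine-1-phosphate transporter, at 89.0 against 28.0 CPM and 85.4 against 29.1 CPM. Lower in members were Hbb-bs and Cybb. Hbb-bs, an adult globin gene, stood at 1.76 against 25.3 CPM and 3.13 against 94.9 CPM. Cybb, the oxidase subunit of phagocytes, stood at 2.40 against 28.3 CPM and 2.76 against 39.2 CPM.

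Among measured selenoprotein mRNAs 7 of 13 were called lower in knockout members, the furthest by more than 10-fold, and 6 were not called. Selenoh, a nucleolar redox protein, stood at 260 CPM in control members (5294 UMIs) and 25.6 CPM in knockout members (418 UMIs), a log2 ratio of knockout over control of −3.34 (−3.49 to −3.20). Selenow, a small thioredoxin-like protein, stood at 119 and 15.02 CPM (−2.98), and Gpx1, the cytosolic glutathione peroxidase, at 1164 and 210 CPM (−2.47, −2.52 to −2.42). Gpx4, which reduces peroxides in membrane lipids, stood at 358 and 104 CPM (−1.77, −1.85 to −1.70). Selenop, which carries selenium, was at −1.78, the endoplasmic reticulum protein Selenof at −0.80 and Selenot at −0.62. A gene was measured at 20 CPM in 1 library and 50 UMIs over both, and called at a 1.5-fold difference. By that count 7 of 13 measured selenoproteins of 24 listed were lower and 0 higher, while of all 6191 measured genes 41 (0.662%) were lower and 57 (0.921%) higher. The list's median log2 ratio was −0.62, and that of all measured genes was 0.0148.

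The other measured selenoproteins lay nearer to 0. Selenok was at −0.47, Msrb1, a methionine sulfoxide reductase, at −0.39, Selenos at −0.13, Txnrd1, the cytosolic thioredoxin reductase, at −0.06, Sephs2, which makes selenophosphate, at −0.0029, and Selenoi, an enzyme of phospholipid synthesis, at 0.23. Of the genes whose products load or decode the Sec tRNA, 0 of 10 measured were called in either direction, with a median of −0.01. Among them were Secisbp2 (0.0061), which binds the Sec insertion element, Eefsec (0.23), the elongation factor that carries the tRNA, and the tRNA kinase Pstk (−0.06).

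**Figure D2:**
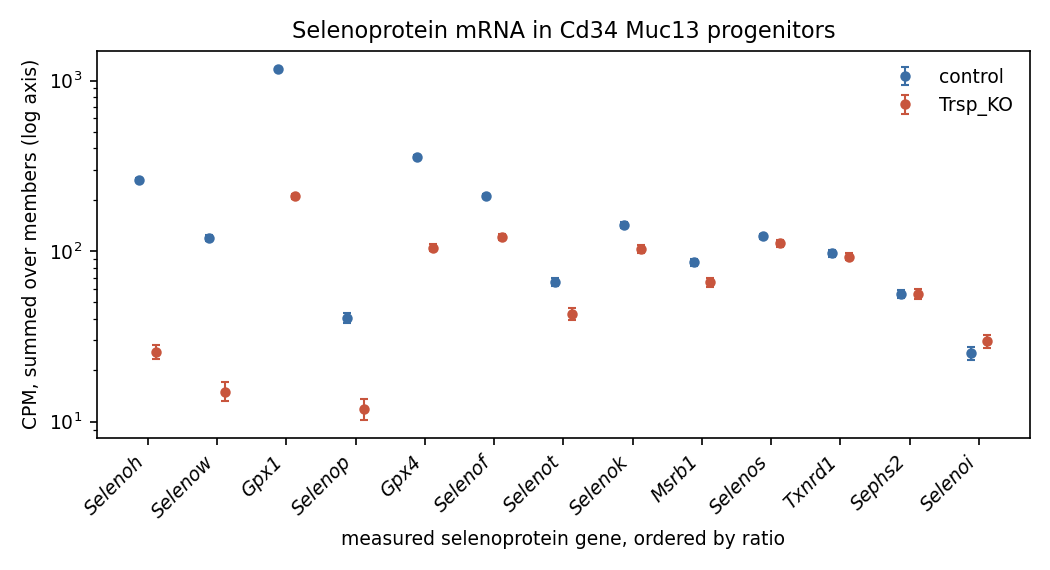
CPM (log axis) of the 13 measured selenoprotein genes, summed over 1008 control and 719 knockout members, with exact Poisson 95% intervals. Genes are ordered by ratio, and the 7 at the left, Selenoh to Selenot, are at least 1.5-fold lower in the knockout.

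The place of the Sec codon divided the measured selenoproteins when all members were summed, but not in every smaller group described below. In 7 genes the codon lay more than 50 bases upstream of the last exon junction, and all 7 were called lower, with log2 ratios from −3.34 to −0.62. Selenot, the nearest to 0, lost its call with at most 1 UMI of Hlf plus Mecom allowed (−0.53) and as a mean of per-cell CPM (−0.56). In the other 6 it lay nearer to that junction (34 bases in Msrb1, 5 bases in Selenok) or in the last exon (Selenoi, Selenos, Txnrd1, and Sephs2 with its single exon), and 0 of 6 were called, with ratios from −0.47 to 0.23. This division was drawn after the values had been seen. Among genes under the floor with at least 50 UMIs, Selenom (208 and 70 UMIs, −1.25) and Selenon (370 and 143 UMIs, −1.05) have an upstream codon. Dio2 (−0.05), Selenoo (−0.22) and Txnrd2 (0.22) have it in the last exon, as does Txnrd3, an exception at 253 and 131 UMIs (−0.63). Distance did not order the ratios among upstream codons, since Selenot, with 470 bases, had the value nearest to 0 of the 7, and Selenoh, with 136 bases, the lowest.

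**Figure D3:**
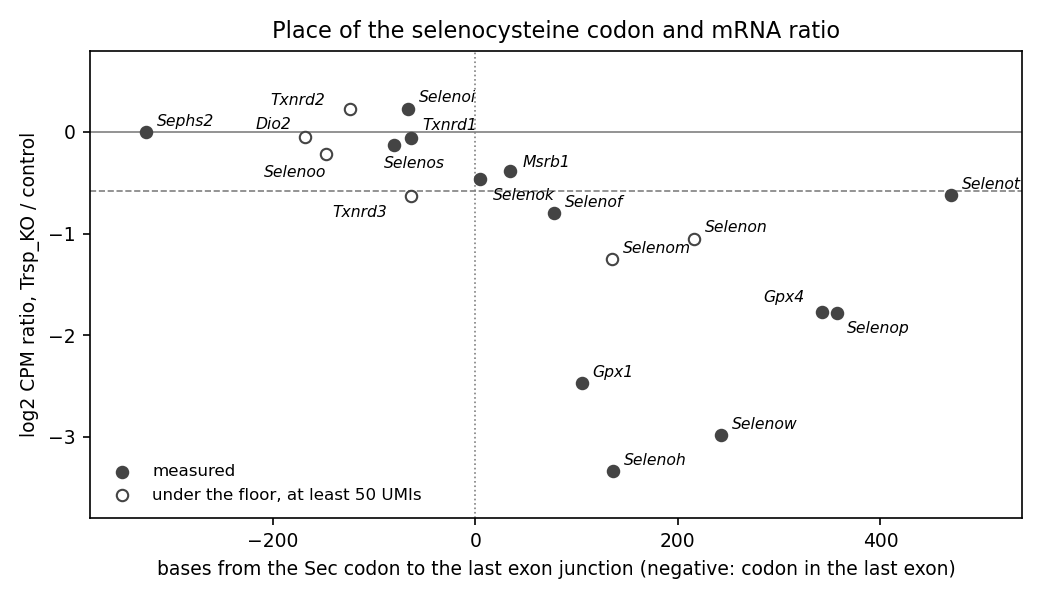
Log2 CPM ratio of Trsp_KO over control in members (vertical axis) against the number of bases from the Sec codon to the last exon junction of the transcript (horizontal axis, negative in the last exon). Filled points are the 13 measured genes, open points 6 genes under the floor, and the dashed line marks 1.5-fold lower. The points at the right of 50 bases all lie below that line.

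Per member thinned to 11896 UMIs, the 24 listed selenoproteins together had a median of 32 UMIs in 884 control members and 12 in 670 knockout members. The 5th percentile of control was 21 UMIs and the 95th percentile of knockout 19, while the full ranges overlapped, with a control minimum of 13 and a knockout maximum of 31. For Gpx1, Gpx4, Selenoh, Selenow and Selenop alone, genes chosen for their difference, the medians were 22 and 4 UMIs, which is given as a description. In each of the 7 sub-clusters Selenoh lay between −3.79 and −2.90 and Gpx4 between −2.27 and −1.47. Gpx1 was at −2.60 in stem, −2.51 in Dntt and −2.55 in myeloid neighbours. Of the measured selenoproteins 8 of 15 were called lower in stem, 6 of 12 in Dntt and 8 of 15 in myeloid neighbours and 8 of 14 in all other kept barcodes, where 0.819%, 2.13%, 0.649% and 0.594% of all measured genes were.

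Listed targets of NRF2 were higher or near 0 in knockout members, and the ratios were larger in members with many G2 and M phase UMIs, a difference that was not tested. Over all members, Ftl1 (GRCm38 chr7:45457944-45459884), the ferritin light chain that stores iron, stood at 360 CPM in control and 719 CPM in knockout, a log2 ratio of 0.997 (0.96 to 1.04). Gclm (GRCm38 chr3:122245557-122270732), the modifier subunit of glutamate-cysteine ligase, which makes the first intermediate of glutathione, stood at 103 and 198 CPM (0.94, 0.86 to 1.02), and Gclc, its catalytic subunit, at 39.1 and 61.5 CPM (0.65). Gsr, glutathione reductase, stood at 66.3 and 113 CPM (0.77), and the glutathione transferase gene Gstm1 at 73.3 and 112 CPM (0.61). Of 17 measured targets of 26 listed, these 5 were called higher and 0 lower, against 0.921% of all measured genes called higher, with a median of 0.40. Another 9 targets were under the floor. Of these, Slc7a11, the cystine transporter, had 16 and 137 UMIs (3.42, 2.67 to 4.27), Pir 17 and 108, Osgin1 12 and 69, Srxn1, which repairs oxidised peroxiredoxins, 53 and 174, and Nqo1, a quinone reductase, 33 and 92. Hmox1, heme oxygenase, had 13 and 41 UMIs and Me1 2 and 9, while Gsta4 had 71 and 74 UMIs (0.38) and Ugdh 378 and 298 (−0.02), ratios below those of Ftl1 and Gclm. Tkt, of the pentose phosphate pathway, was at 0.04 and Txn1, thioredoxin, at 0.07. The same list had 3 of 16 measured genes higher in stem (median 0.27), 4 of 14 in Dntt (0.31) and 8 of 19 in myeloid neighbours (0.54), and 7 of 19 in all other kept barcodes (0.50). Of all measured genes 0.943%, 3.6%, 1.2% and 1.07% were called higher in those groups.

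Members were split into 3 groups by their summed UMIs of 32 G2 and M phase genes after thinning, with bounds that put nearly equal numbers of cells, both libraries together, in each, a choice made after the sub-clusters had been seen. The low group held 264 control and 258 knockout members with up to 22 such UMIs, the middle group 298 and 216, and the high group 322 and 196 with more than 57.3. Gclm stood at 107 CPM in control and 120 CPM in knockout members of the low group, at 87.6 and 139 in the middle group, and at 105 and 313 in the high group. Its control level was thus about the same in the low and high groups, and its log2 ratio went from 0.17 (−0.01 to 0.35) through 0.67 to 1.58 (1.47 to 1.70). Ftl1 stood at 388 and 504 CPM in the low group (0.38, 0.29 to 0.47) and at 331 and 1006 CPM in the high group (1.61, 1.54 to 1.67). Gsr went from 0.40 to 1.17, Gclc from 0.43 to 1.07, and Fth1, the ferritin heavy chain, from 0.05 to 0.71.

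The list as a whole had the same order. In the low group 1 of 17 measured NRF2 targets was called higher (median 0.17), in the middle group 2 of 17 (0.18) and in the high group 10 of 17 (0.71), while 0 were lower in each. Of all measured genes 1.12%, 1.27% and 2.11% were called higher in the same groups. Slc7a11 had 3 control and 13 knockout UMIs in the low group and 8 and 92 in the high group. Srxn1 had 19 and 29 UMIs (0.45, −0.44 to 1.36) in the low group and 13 and 101 (3.46, 2.62 to 4.42) in the high group. Catalase (Cat), a peroxide-degrading enzyme without selenium, went from 0.38 to 1.12. Per thinned cell, the 26 targets together had a median of 51 UMIs in control and 55 in knockout members of the low group, and 51 and 77 in the high group, where the knockout cells' 10th percentile, 57, lay above the control median.

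Gpx1, Selenoh and Gpx4 were lower in the knockout in each group, while the ratio of Txnrd1 changed sign. Gpx1 was at −2.44 in the low, −2.58 in the middle and −2.40 in the high group. Selenoh was at −2.99, −3.47 and −3.33, Gpx4 at −1.95, −1.88 and −1.55, and Selenop at −2.05, −1.69 and −1.51. Txnrd1 went from −0.35 (−0.55 to −0.15) in the low through −0.27 to 0.28 (0.12 to 0.43) in the high group. The stem and myeloid neighbours, split in the same way on their own values, also had larger NRF2 target ratios in the high than in the low group. In stem neighbours 0 of 17 targets were called higher in the low group (median 0.02), 2 of 16 in the middle (0.21) and 8 of 18 in the high (0.47), with Gclm at 0.02, 0.73 and 1.49. In myeloid neighbours the counts were 5 of 18 (0.26), 8 of 19 (0.52) and 13 of 20 (0.81), with Gclm at 0.65, 1.51 and 2.06. All measured genes were called higher at 3.83%, 2.22% and 3.34% in the groups of stem neighbours, and lower at 3.33%, 1.94% and 1.97%. In those of myeloid neighbours they were called higher at 1.36%, 1.51% and 2.94%, and lower at 0.772%, 0.671% and 0.865%. In members 8 of 14 selenoproteins were called lower in the low, 8 of 13 in the middle and 7 of 13 in the high group, where 0.96%, 0.731% and 1.12% of all genes were. Selenok, with its codon 5 bases from the last junction, was among those of the middle group (−0.59). Msrb1, with 34 bases, was at −0.73 in the middle group of stem neighbours. The difference between these groups was not tested.

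Other measures moved with these groups. Unthinned depth was higher where the G2 and M UMIs were, going from a median of 15279 to 24498.5 UMIs in control members and from 17578 to 29878 in knockout members, and its part in the result was not tested. The median of the mitochondrially encoded genes was 0.23, 0.20 and 0.24 in the 3 groups, and so did not follow the NRF2 targets. Among sub-clusters the NRF2 median was 0.76 in sub-cluster 3 (10 of 18 higher) and 0.69 in sub-cluster 5 (9 of 17), both rich in Mki67. It was 0.16 in sub-cluster 1 (0 of 16), whose cells were in S phase by their leading genes, and 0.07 in sub-cluster 2. In sub-clusters 4 and 6 it was 0.21 and −0.02, and in the 24 members of sub-cluster 7 it was 0.66 (6 of 11). Of all measured genes, 64 of 6140 were called higher in sub-cluster 1, 160 of 6248 in 2 and 142 of 6227 in 3. The counts were 159 of 6140 in sub-cluster 4, 365 of 6438 in 5, 311 of 6013 in 6 and 154 of 1848 in 7.

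**Figure D4:**
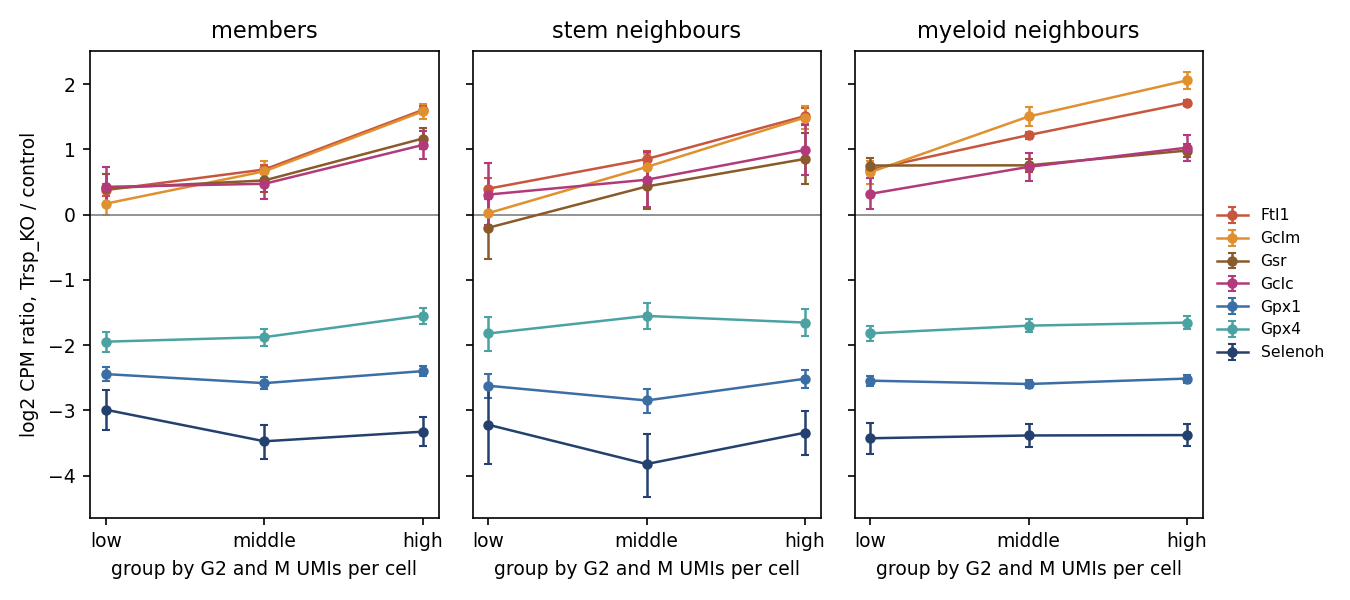
Log2 CPM ratio of Trsp_KO over control, with exact conditional binomial 95% intervals, for 4 NRF2 targets and 3 selenoproteins in groups of members, stem neighbours and myeloid neighbours ordered by G2 and M phase UMIs per thinned cell. Ftl1, Gclm, Gsr and Gclc lie higher in the high than in the low group in each panel, while Gpx1, Gpx4 and Selenoh stay between −3.82 and −1.55.

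**Figure D5:**
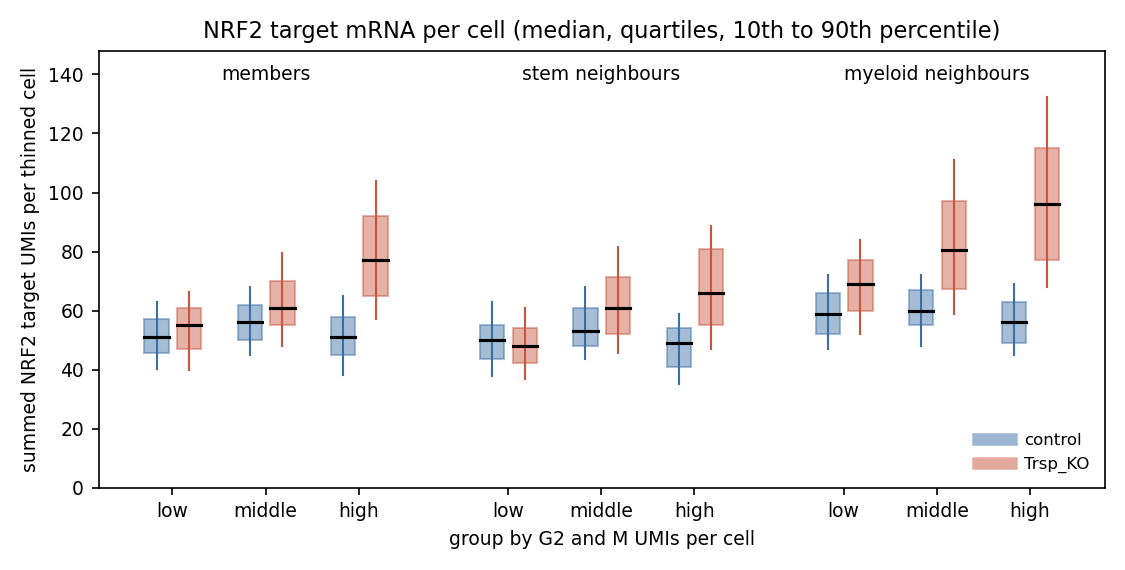
Summed UMIs of 26 NRF2 targets per cell thinned to 11896 UMIs, by library and group: bar inside the box, median; box, quartiles; line, 10th to 90th percentile. Control medians lie between 49 and 60 throughout, and knockout medians reach 77, 66 and 96 in the high groups.

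Of the listed targets 5 hold the sequence TGANTCAGC, the antioxidant response element to which NRF2 binds with small MAF proteins, in the window from 250 bases before to 50 after an annotated start. Both strands were searched, and the sequence can overlap the looser form TGACNNNGC, which has the same length. The 4 matches shown, without that of the scarce Me1, lie upstream of the start and are printed on the strand of the gene, with the match in capitals (RefSeq promoters, GRCm38.p6).
Srxn1, chr2:152105459-152105507, plus strand: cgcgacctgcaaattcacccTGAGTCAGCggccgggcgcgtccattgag
Pir, chrX:164269197-164269245, plus strand: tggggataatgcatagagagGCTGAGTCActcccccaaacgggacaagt
Osgin1, chr8:119437028-119437076, plus strand: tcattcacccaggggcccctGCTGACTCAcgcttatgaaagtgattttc
Prdx1, chr4:116685446-116685494, plus strand: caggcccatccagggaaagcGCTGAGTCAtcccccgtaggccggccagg
The window was available for 21 of the 26 targets, and 1.37% of 27025 genes with a window hold TGANTCAGC. Srxn1, Pir and Osgin1 were among the targets under the floor with high ratios, while Prdx1, a peroxiredoxin measured at 393 and 463 CPM, was at 0.24. Slc7a11 and Nqo1, also under the floor with high ratios, hold no such match in their windows. Nor do the called targets Ftl1, Gclm and Gstm1, which says nothing of sites elsewhere.

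The following counts stand beside 0.921% of all measured genes called higher and 0.662% lower. Of 17 measured neutrophil and monocyte genes 0 were called in either direction, with a median of −0.13. Ctsg stood at 1434 and 971 CPM (−0.56), Ms4a3 at 207 and 156 (−0.41) and Lyz2, lysozyme, at 137 and 109 (−0.33), while Irf8 stood at 107 and 150 CPM (0.49). Of 8 basophil, mast cell and eosinophil genes 2 were called lower, Ms4a2 at 61.1 and 36.2 CPM (−0.76) and the eosinophil peroxidase gene Epx at 23.9 and 13.2 CPM (−0.86), and all 8 ratios were below 0 (median −0.39). The 24 barcodes of sub-cluster 7, 12 of each library, were rich in Epx, Prg2 and Prg3, so these genes do not count separately. Mcpt8, on the same list, was capped by the rule. Cpa3, the mast cell carboxypeptidase, was at −0.42. The same list had a median of −0.56 over 5 measured genes in stem, −1.54 over 3 in Dntt and −0.56 over 6 in myeloid neighbours.

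Among 9 measured lymphoid genes Ighm alone was called (1.30), but 1 control barcode held 67.3% of its control UMIs, and without the members rich in mature cell transcripts it was at 0.53 and not called. Its ratio was 0.48 with at most 1 UMI of Hlf plus Mecom allowed. Flt3 stood at 53.1 and 68.9 CPM (0.38) and Notch1 at 26.7 and 34.7 CPM (0.38). None of 23 measured fate transcription factors was called: Cebpa, the granulocyte regulator, was at −0.32, Zeb2 at 0.30, Spi1 at −0.05, Runx1 at 0.12 and Gata2 at −0.09. Of 16 measured cytokine receptors Il6ra, the interleukin-6 receptor chain, was called higher, at 22.5 and 37.4 CPM (0.73), but not with the rule applied at 10000 UMIs per barcode (0.56), while Kit was at 0.16 and Csf3r at 0.08. Myc, the growth regulator given as a marker of these cells, stood at 136 and 174 CPM (0.35), and 0 of 31 measured MYC-regulated growth genes were called, with a median of −0.10. Ifitm1, an interferon-induced gene also high in stem cells, was called lower, at 262 and 145 CPM (−0.85).

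G2 and M phase genes summed to less in knockout members, at 5068 and 4575 CPM, and S phase genes to about the same, 3469 and 3436 CPM. The G2 and M sum was 5610 and 5423 CPM in stem neighbours. It was higher in the knockout in Dntt (5402 and 6759) and myeloid neighbours (5205 and 5458) and all other kept barcodes (4749 and 5170). The thinned G2 and M phase UMIs had a median of 39 in control and 32 in knockout members, and the S phase UMIs 41 and 40. The high group by G2 and M UMIs held 36.4% of control and 29.3% of knockout members. Of 31 measured G2 and M genes Ube2c, an enzyme of mitotic protein degradation, was called lower (−0.68), with a list median of −0.14, and was not called, at −0.23, when the rule was applied at 10000 UMIs per barcode. Mki67 was at 0.18, 0.04 and 0.0056 in the low, middle and high groups. Of 19 immediate early genes Nr4a1 was called lower (44.6 and 24.3 CPM, −0.88), and Fos was at −0.49 and Klf2 at −0.48. The 13 mitochondrially encoded genes had a median of 0.22 beside the higher mitochondrial share of knockout members, and the 24 nuclear genes of oxidative phosphorylation a median of −0.13. Txnip, an inhibitor of thioredoxin, stood at 83.3 and 149 CPM (0.84) and Ahsa1, an activator of HSP90, at 41.6 and 87.8 CPM (1.08).

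Several of the largest differences in members had a similar size in every neighbouring group, and with 1 library each, genotype and any other difference between the libraries cannot be told apart for them. Ctse, the aspartic protease cathepsin E, had 1268 UMIs in 627 control members and 64 UMIs in 58 knockout members (−3.99, −4.37 to −3.62). It stood at 13.8 and 7.43 CPM in B-lineage barcodes, and its ratio was −3.67 in stem, −3.72 in Dntt and −4.55 in myeloid neighbours. Adgre5, the adhesion receptor CD97, was at 1.65 in members (166 and 418 UMIs) and at 1.74, 1.98 and 1.74 in those groups. Eno1, an enolase of glycolysis, was at 1.61 and at 1.34 to 1.82, the histone gene Hist1h2ap at 2.98 and at 2.99 to 3.22, and Rpl35 at 1.48 and at 1.40 to 1.43. Gm10076 (2.50), Hist1h2ae (1.56), Hist1h4h (1.40), Rnaset2a (−1.60), Rnaset2b (−1.43) and Phpt1 (−1.47) had the same direction in every neighbouring group. The histone genes, Rnaset2a and Rnaset2b have near-identical copies, and 3′ reads may be split among those, so their values are uncertain. Selp, which encodes P-selectin, was at 1.48 in members and 0.62 to 1.22 in the neighbours, and Mpeg1, a pore-forming protein of macrophages, at 1.68 and 0.69 to 0.88.

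Of the genes furthest apart 6 rested on very few barcodes. One control member held 940 of 1103 S100a8 UMIs (85.2%), 883 of 986 S100a9 UMIs and 424 of 438 Ngp UMIs, so that the ratios of these neutrophil granule genes (−3.00, −3.84 and −7.45) describe that barcode. Of the immunoglobulin genes, 1 barcode held 74.8% of the Igkc UMIs in control and another 48.9% in knockout, and 10 knockout barcodes held 96.3% of Igkc and 97.5% of Jchain. Igkc (1.84), Jchain (1.87) and Ighm (1.30) thus rested on a handful of members. With the 18 control and 15 knockout members rich in mature cell transcripts left out, Igkc was at −0.68 and Ighm at 0.53, and 54 genes were called higher and 37 lower.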

How the data were processed

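Lineage- cKit+ mouse marrow gave 1 single-cell library per genotype, made with the 10x Genomics 3′ kit v3.1, per the labels' protocols. The authors deposited UMI counts per gene and barcode, made with Cell Ranger 6.1.2 on mm10, per the submitters' processing notes. Which annotation, cell calling and strand setting were used is not given in the sources here. The files held 14372 control and 11556 knockout barcodes with 184683653 and 152092210 UMIs, and the lowest barcode had 500. Groups were taken from the genotype labels, and Trsp itself is not analysed here.

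From the counts, UMIs of members were summed per library and scaled to CPM. A gene was measured at 20 CPM in 1 library and 50 UMIs over both, and called at 1.5-fold (2-fold in both libraries between members and neighbours). Ratios carry exact conditional binomial and levels exact Poisson 95% intervals. UMIs are molecules, but these intervals cover counting error only, and with 1 library per genotype no test was made. Shares and UMIs per cell were compared after each barcode was thinned to 11896 UMIs, the 10th percentile of members, which left 884 of 1008 control and 670 of 719 knockout members. Doublets were scored with Scrublet at an assumed rate of 10%. It marked 139 of the kept control and 66 of the kept knockout barcodes, 9 and 2 of them members, which were left in except in 1 alternative. Free RNA was read from B-lineage barcodes. Sub-clusters came from Leiden clustering (scanpy 1.11.5, leidenalg 0.10.2, resolution 0.5). Other tools were Python 3.11.15, numpy 2.4.6, pandas 2.3.3 and scipy 1.17.1. The scripts were tested on simulated data.

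Genes named are all measured selenoproteins and the 12 highest and 12 lowest called ratios, with Xist, Tsix and Y-linked genes left out of that choice. The counts of called genes did not leave them out. Also named are up to 4 genes of each list with the largest ratios in size, and genes whose role is introduced. Against each neighbour group, examples are given of the 12 highest and 12 lowest by the smaller ratio of the 2 libraries. The members and lists were chosen with earlier results of these data known. The 3 groups by G2 and M phase UMIs, the 50-base division of Sec codons and the removal of members rich in mature cell transcripts were chosen after the data were seen. Of 32285 feature IDs 32158 matched GENCODE M21 (GRCm38), used for codon places. Alternatives were other floors, cell filters, doublet removal, thinning, a per-cell mean, another rule depth and leaving out groups of members.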

Additional observations from a re-analysis of the deposited data

Results flagged for a closer look

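Genes of antibody-secreting and antigen-presenting cells had opposite directions in members and in a neighbouring group, and none of these differences was tested. Igkc was higher in knockout members (log2 ratio 1.84) and lower in knockout Dntt neighbours (-0.72, 136 and 79 UMIs) and myeloid neighbours (-1.54, 4988 and 1696 UMIs). Jchain was at 1.87 in members and at -3.27 in myeloid neighbours (801 and 82 UMIs). Ighm was at 1.30 in members and at -0.73 in myeloid neighbours (5729 and 3414 UMIs). Cd74, the invariant chain of MHC class II, was at 0.87 in members and at -2.91 in myeloid neighbours (532 and 70 UMIs). In members 1 control barcode held 74.8% of the control Igkc UMIs, and 1 knockout barcode held 45.4% of the knockout Cd74 UMIs. Without the members rich in mature cell transcripts Igkc was at -0.68 in members, the direction seen in the Dntt and myeloid neighbours. In stem neighbours Igkc was at 4.16 and Jchain at 4.22, the direction of all members. The lymphoid list, which holds Ighm, had a median of 12 UMIs per thinned knockout stem neighbour, a 95th percentile of 21 and a maximum of 1149. The stem neighbour ratios of Igkc and Jchain may thus also rest on few barcodes, which was not tested.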

How the results depend on the processing

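No paired analysis was possible because each genotype has 1 library. The knockout to control ratio of the member share was 0.939 and stayed between 0.926 and 1.01. With a floor of 100 CPM, 19 genes were called higher and 13 lower, the NRF2 median was 0.29 and the selenoprotein median -1.77. With no floor but 10 UMIs, 833 were higher and 655 lower, and the NRF2 median was 0.53. These settings change which genes are measured. In the low, middle and high groups by G2 and M phase UMIs the NRF2 median was 0.17, 0.18 and 0.71, and the selenoprotein median was -0.78 in the low group; the cause was not tested. Igkc changed direction, to -0.68, without the members rich in mature cell transcripts. Of 490 values of the 41 called named genes 481 kept their call. Those that lost it were Cd74, Igkc, Ighm, Gclc (0.52 as a per-cell mean), Selenot (-0.53 and -0.56), Il6ra (0.56 under another rule depth) and Ube2c (-0.23). A gene under the floor in a setting was not scored there, so calls lost in that way are not counted. Depth limits genes under 20 CPM, such as Slc7a11 with 16 control UMIs, and sub-cluster 7 with 24 members.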

Other observations

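Other stress and metabolic lists were counted in members beside 0.921% of all measured genes called higher and 0.662% lower. Of 17 measured endoplasmic reticulum chaperones 0 were called (median -0.06), of 10 genes of the integrated stress response 0 (-0.05), of 7 p53 targets 0 (-0.02), of 12 genes of cholesterol synthesis 0 (-0.04) and of 6 interferon-stimulated genes 0 (-0.06). Among 16 measured heat shock genes Ahsa1 was called higher (1.08) and Hspa1b lower (-0.80), with a list median of -0.03. Antioxidant genes without selenium had a median of -0.04 over 19 genes, with 3 called higher: catalase (Cat, 49.4 and 82.0 CPM), and Gsr and Gclc, which the NRF2 list also holds.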
